A study of Mus musculus with 9 samples.

Results

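Ifng, Csf2, Ifngr1 and Ifngr2 were chosen by gene symbol in the platform annotation, each read from its brightest probe set. They are 4 of the 12579 genes tested on these arrays, and 5 of the 41345 probe sets read them, because Csf2 has a second, dimmer one. Female C57BL/6N mice of 3 genotypes gave splenic natural killer (NK) cells, which were selected on DX5 magnetic beads. The genotypes were wild type (WT), absence of the Janus kinase Tyk2 (Tyk2-/-), and Tyk2K923E, a mutation that leaves the kinase inactive. Each culture pooled cells of 3 to 4 mice and was grown for 7 days with recombinant human IL-2 at 5000 U/ml, the agent that all groups share. The labels name no other stimulus, and give no age. With 3 independent experiments and 1 array per genotype in each, there were 9 arrays.

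Interferon-gamma, the product of Ifng, is the signature cytokine of NK cells and activates macrophages and antigen presentation in the cells that receive it. IL-12 induces it through a receptor that carries TYK2 and JAK2 and activates STAT4, and IL-18 and IL-2 act together with IL-12. Its own receptor joins IFNGR1, which binds the ligand and carries JAK1, with IFNGR2, which carries JAK2. Csf2 encodes GM-CSF, a growth factor for granulocytes, macrophages and dendritic cells that activated NK cells also release.

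The sequences upstream of both cytokine genes are shown because factors measured on these arrays, such as STAT4, T-bet, AP-1 and NFAT proteins, are known to act at these genes. Each line gives the 250 bases before the RefSeq start of the gene, on the gene's own strand in build GRCm38.p6, at chr10:118440796-118441045 (+) for Ifng and chr11:54249900-54250149 (-) for Csf2, with capitals marking matches to the motifs named after them.
Ifng: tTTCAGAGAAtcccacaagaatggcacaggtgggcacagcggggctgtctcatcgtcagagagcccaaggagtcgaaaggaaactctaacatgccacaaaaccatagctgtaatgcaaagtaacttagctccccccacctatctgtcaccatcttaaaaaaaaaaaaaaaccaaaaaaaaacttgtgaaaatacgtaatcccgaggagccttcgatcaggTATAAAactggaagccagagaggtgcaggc
Csf2: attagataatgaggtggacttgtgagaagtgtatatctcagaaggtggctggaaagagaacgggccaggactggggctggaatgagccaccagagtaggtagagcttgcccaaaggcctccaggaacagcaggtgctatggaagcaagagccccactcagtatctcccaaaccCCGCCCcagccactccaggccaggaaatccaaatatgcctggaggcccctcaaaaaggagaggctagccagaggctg

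A set of 5 motifs was searched on both strands. They were the TATA box TATAAA, the GC box GGGCGG, the STAT element TTCNNNGAA, the AP-1 element TGANTCA and the interferon-stimulated response element, a pair of GAAA blocks parted by 2 free bases. The Ifng window held a TATA box whose first base lies 30 bases before the start and a STAT element that begins 249 bases before it, and it has a GC content of 45.2%. The Csf2 window held 1 GC box, 77 bases before the start and on the opposite strand, with a GC content of 55.2%. The windows of the receptor genes, at chr10:19591699-19591948 (+) for Ifngr1 and chr16:91546809-91547058 (+) for Ifngr2, held 2 and 4 GC boxes and no TATA box, with a GC content of 59.2% and 74%. Neither TGANTCA nor the interferon-stimulated response element occurred in the 4 windows. Among 32851 RefSeq promoter windows of the same length, 12.4% held TATAAA, 32.7% GGGCGG, 7.02% TTCNNNGAA, 6.75% TGANTCA and 2.98% the interferon-stimulated response element. A match describes the letters only, and no binding was measured here.

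The deposited values are on a log2 scale, so a difference of 1 is a doubling, and array medians lay between 5.42 and 5.48. The arrays of experiment 1 stood apart from the other 6 on the first principal component (61.0% of the variance). Values of one genotype are therefore given in the order of experiments 1, 2 and 3. Defining NK markers were well above the array medians on all 9 arrays (Ncr1 at 10.8 to 11.6, Eomes at 10.8 to 11.1, Nkg7 at 11.9 to 12.3). The B cell markers Cd79a and Ms4a1, the macrophage marker Adgre1 and the neutrophil markers S100a8 and Mpo were below the median on all 9 arrays, whereas the T cell marker Cd3e (10.5 to 11.8) and the basophil protease Mcpt8 (9.87 to 11.1) were high on all 9. Per array, 4 to 6 of 12 monocyte, macrophage and dendritic cell markers were at or above the median, Csf1r on 2 arrays and Lyz2 on 1 among them, and so were 2 to 3 of 10 neutrophil markers. Among 8 B cell markers, 1 was at or above the median on every array except Tyk2K923E replicate 2. Of 13 T cell markers, 11 to 12 were at or above the median per array, Cd4 on 2 arrays among them, while Foxp3 was below it on all 9. Of 10 basophil and mast cell markers, 4 were at or above the median on each array, while Fcer1a, Ms4a2, Gata2, Prss34, Tpsb2 and Hdc were below it on all 9. Tyk2 itself (probe set 17524620) read 8.68, 8.56 and 8.63 in WT, 8.63, 8.43 and 8.52 in Tyk2K923E and 9.55, 8.63 and 8.85 in Tyk2-/-. The deleted part of the gene and the probe positions are not given in the sources used here, so this reading cannot check the labels.

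None of the 4 genes passed the threshold in any comparison of genotypes. The threshold was an adjusted p of 0.05 in limma, with Benjamini-Hochberg adjustment over all genes. It was passed by 4 genes between Tyk2-/- and WT (0.0318% of those tested), by 1 between Tyk2K923E and WT (0.00795%) and by 3 between Tyk2-/- and Tyk2K923E (0.0238%). With the experiments paired in the fit, 11 genes (0.0874%), 11 genes (0.0874%) and 3 genes (0.0238%) passed, again with 0 of the 4. At an unadjusted p under 0.05, 1 of the 4 lay below it in Tyk2-/- against WT, where 2.08% of all genes did, and 0 of the 4 did in the other comparisons, where 4.21% and 2.41% of all genes did. With the experiments paired these counts were again 1, 0 and 0, beside 9.08%, 10% and 9.68% of all genes. The gene counted was Ifng. Its unadjusted p in limma was 0.0599 without Tyk2-/- replicate 3 (0.0351 with the experiments paired) and 0.165 without experiment 3 (0.0664 paired). All comparisons with WT share the 3 WT arrays. Not passing does not show that a gene is unchanged, because the unpaired fit recovered 0% of simulated differences of 0.3. The paired fit recovered 22% of them, but it made 10 false calls in that simulation, against 0 in the unpaired fit.

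**Figure D1:**
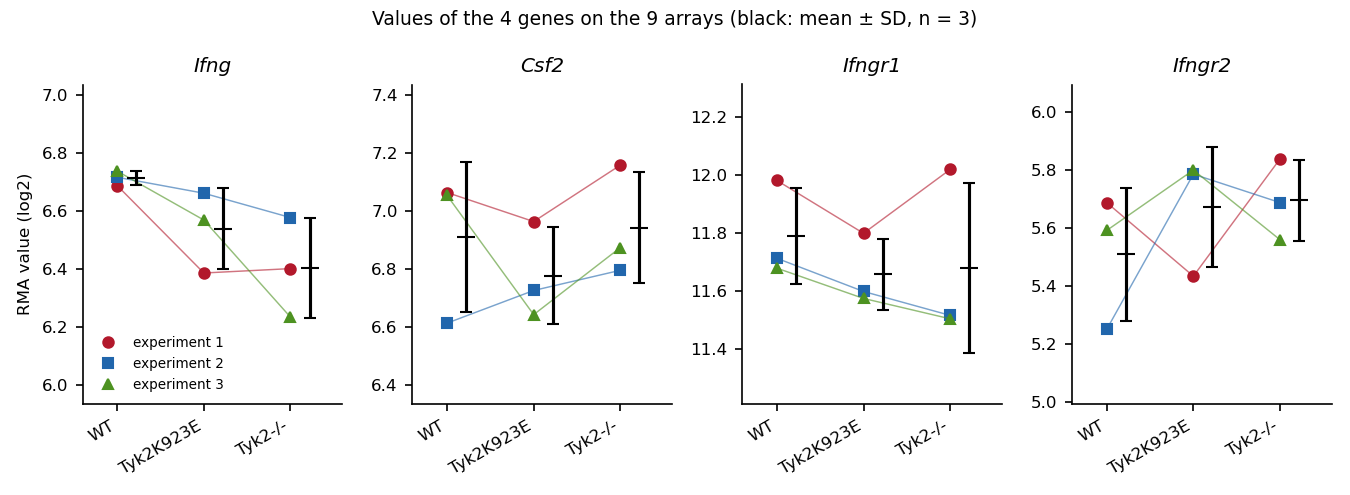
Deposited RMA values (log2, vertical axes with the same span) of Ifng, Csf2, Ifngr1 and Ifngr2 on the 9 arrays, by genotype, with symbols and lines joining arrays of the same experiment and black bars giving the mean and SD over 3 arrays. The WT values of Ifng lie within 0.05 of each other and above all 6 mutant values, and the values of Ifngr1 are highest in experiment 1 for each genotype.

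Ifng was read by probe set 17237589 (chromosome 10), which lay at percentiles 63.5 to 69.4 of its array. Its values were 6.69, 6.72 and 6.74 in WT, a mean of 6.71 ± 0.03 (SD, n = 3). In Tyk2K923E they were 6.39, 6.66 and 6.57, a mean of 6.54 ± 0.14. In Tyk2-/- they were 6.40, 6.58 and 6.23, a mean of 6.40 ± 0.17. All 6 mutant values lay under the lowest WT value, while the values of both mutants overlapped, so the order of the means was WT, Tyk2K923E and Tyk2-/- with the last 2 not separated by their spread. The WT values spanned 0.05, against 0.27 in Tyk2K923E and 0.34 in Tyk2-/-.

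The log2 difference of Ifng between Tyk2-/- and WT was -0.31 (SE 0.10, 95% interval -0.54 to -0.07), that is 80.7% of the WT level, with an unadjusted p of 0.016 and an adjusted p of 1 in limma. By experiment the differences were -0.29, -0.14 and -0.50, lower in 3 of 3. With the experiments paired, the interval was -0.51 to -0.11, the unadjusted p 0.00677 and the adjusted p 0.377. Among all genes tested, this difference stood at percentile 1.31 from the lowest. Non-overlapping ranges with the mutant lower were found for 2.74% of all genes in this comparison, and a lower value in all 3 experiments for 13.6%.

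Between Tyk2K923E and WT, the log2 difference of Ifng was -0.17 (SE 0.10, 95% interval -0.41 to 0.06, limma adjusted p = 1, and 0.562 with the experiments paired). The experiments gave -0.30, -0.06 and -0.17, again lower in 3 of 3, at percentile 6.72 of all genes. Ranges apart in this direction were found for 3.8% of all genes here, and a lower value in all 3 experiments for 14.6%. Between the mutants, Ifng differed by -0.13 (95% interval -0.37 to 0.10, adjusted p = 1) in Tyk2-/- minus Tyk2K923E, and the experiments gave 0.02, -0.08 and -0.33. The difference was largest in experiment 3. In cultures read in bulk, fewer cells of a type and less RNA per cell cannot be told apart.

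Csf2 was read by probe set 17262816 (chromosome 11), at percentiles 67.8 to 73.8 of its array. Its WT values were 7.06, 6.61 and 7.05 (6.91 ± 0.26, SD, n = 3). Tyk2K923E arrays read 6.96, 6.73 and 6.64 (6.78 ± 0.17), and Tyk2-/- arrays read 7.16, 6.80 and 6.87 (6.94 ± 0.19). The lowest value was on a WT array and the highest on a Tyk2-/- array, and the ranges of the 3 genotypes overlapped.

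The log2 difference of Csf2 between Tyk2-/- and WT was 0.03 (SE 0.15, 95% interval -0.32 to 0.38, limma adjusted p = 1), and the experiments gave 0.09, 0.18 and -0.18. Between Tyk2K923E and WT it was -0.13 (95% interval -0.48 to 0.22, adjusted p = 1), and the experiments gave -0.10, 0.11 and -0.41. Neither comparison with WT thus had one sign in all experiments. Leaving out WT replicate 2, the lowest WT array, turned the difference between Tyk2-/- and WT to -0.12. Tyk2-/- was above Tyk2K923E in 3 of 3 experiments, by 0.19, 0.07 and 0.23, with a mean of 0.16 (95% interval -0.18 to 0.51, adjusted p = 1, and 0.582 with the experiments paired). A higher value in all 3 experiments was found for 14.2% of all genes in this comparison.

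The second probe set of Csf2 (17249636) was below the array median on all 9 arrays and was not tested. Its values were 4.93, 5.13 and 4.93 in WT, 4.57, 4.93 and 4.93 in Tyk2K923E and 5.17, 4.91 and 4.91 in Tyk2-/-. The same value, 4.93, stood on 4 of the 9 arrays, and the genotypes overlapped. Such repeats are common in the deposited table, where 18549 probe sets (44.9%) have the same value on at least 2 arrays.

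Ifngr1, which encodes the ligand-binding chain, was read by probe set 17231859 (chromosome 10), at percentiles 98.6 to 99.1 of its array. WT arrays read 11.98, 11.71 and 11.68, a mean of 11.79 ± 0.17 (SD, n = 3). Tyk2K923E arrays read 11.80, 11.60 and 11.58 (11.66 ± 0.12), and Tyk2-/- arrays read 12.02, 11.52 and 11.51 (11.68 ± 0.29). In each genotype the array of experiment 1 was the highest, and the genotypes overlapped.

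The log2 difference of Ifngr1 was -0.11 between Tyk2-/- and WT (SE 0.15, 95% interval -0.46 to 0.24, limma adjusted p = 1), with 0.04, -0.20 and -0.17 in the experiments. It ran from -0.02 without WT replicate 1 to -0.28 without Tyk2-/- replicate 1. Between Tyk2K923E and WT it was -0.13 (95% interval -0.48 to 0.21, adjusted p = 1, and 0.613 with the experiments paired). This difference was negative in 3 of 3 experiments, at -0.18, -0.11 and -0.10, and the fitted value was -0.04 without WT replicate 1 and -0.20 without Tyk2K923E replicate 1. Between the mutants it was 0.02 (95% interval -0.33 to 0.37), with 0.22, -0.08 and -0.07 by experiment.

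Ifngr2, which encodes the signalling chain that carries JAK2, was read by probe set 17327084 (chromosome 16). It lay near the middle of its array, at percentiles 45.4 to 57.9, and was under the array median on WT replicate 2 and Tyk2K923E replicate 1. WT arrays read 5.69, 5.25 and 5.59 (5.51 ± 0.23, SD, n = 3). Tyk2K923E arrays read 5.43, 5.79 and 5.80 (5.67 ± 0.21), and Tyk2-/- arrays read 5.84, 5.69 and 5.56 (5.69 ± 0.14). No genotype was apart from another, and the lowest value was that of WT replicate 2.

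The log2 difference of Ifngr2 was 0.19 between Tyk2-/- and WT (SE 0.14, 95% interval -0.15 to 0.52, limma adjusted p = 1), with 0.15, 0.44 and -0.03 in the experiments. Without WT replicate 2 it was 0.06 (0.03 with the experiments paired). Between Tyk2K923E and WT it was 0.16 (95% interval -0.17 to 0.49, adjusted p = 1), with -0.25, 0.53 and 0.21. Between the mutants it was 0.02 (95% interval -0.31 to 0.35), with 0.40, -0.10 and -0.24. The difference between Tyk2K923E and WT was -0.02 without experiment 2, so its sign rested on that experiment. A probe set near the array median may understate differences, and no background level was measured.

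**Figure D2:**
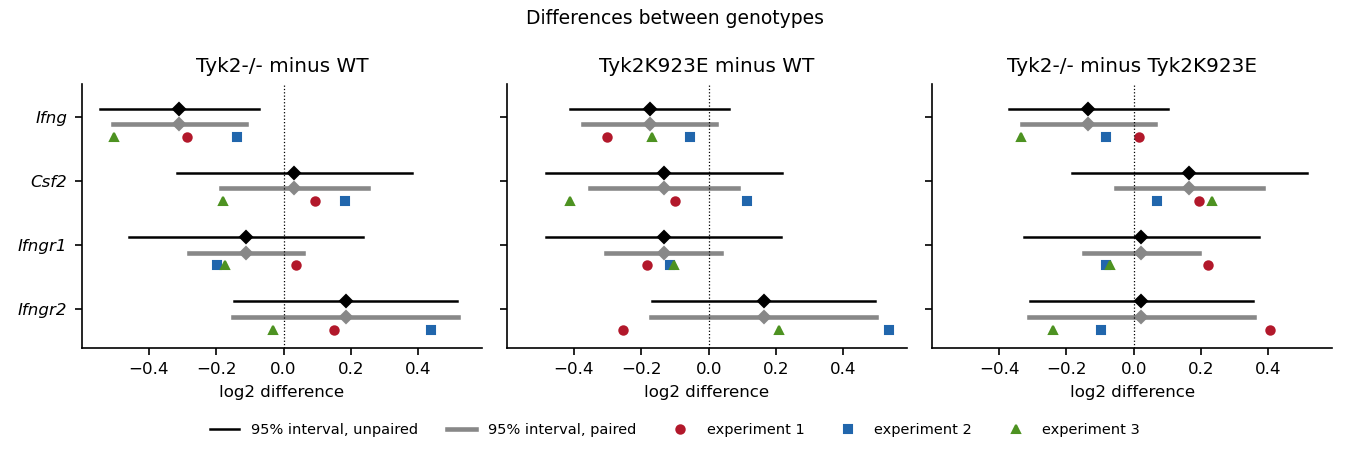
Log2 differences of the 4 genes in the 3 genotype comparisons, with diamonds for the mean difference, thin black bars for the 95% interval of the unpaired fit, thick grey bars for that of the paired fit and coloured symbols for the single experiments. The intervals of Ifng in Tyk2-/- minus WT, -0.54 to -0.07 unpaired, lie below 0, and every other interval includes 0.

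The experiments separated the 4 genes differently from the genotypes. Ifngr1 differed between the experiments (limma F test with genotype as a factor, adjusted p = 0.0145), with means of 11.93, 11.61 and 11.59 in experiments 1, 2 and 3. Such a difference was called for 28.7% of all genes tested (3611 of 12579). Without WT replicate 1, the adjusted p of Ifngr1 was 0.0502. The F test gave an adjusted p of 0.0602 for Csf2, with means of 7.06, 6.71 and 6.86. That of Csf2 was 0.0251 after quantile normalisation, 0.0425 after median centring of the arrays, 0.0438 without Tyk2K923E replicate 2 and 0.0203 without WT replicate 3. It was 0.136 without the filter, 0.49 with the mean over both probe sets and 0.0616 to 0.175 without each of the other 7 arrays. Ifng (adjusted p = 0.326) and Ifngr2 (0.886) did not pass, with experiment means of 6.49, 6.65 and 6.51 for Ifng and 5.65, 5.57 and 5.65 for Ifngr2.

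As a share of the sum of squares over the 9 arrays, genotype took 59.3% for Ifng, 15.0% for Csf2, 10.6% for Ifngr1 and 21.1% for Ifngr2, where the median gene had 15.5%. The share of Ifng stood at percentile 95.5 of all genes tested. The experiment took 18.5% for Ifng, 60.6% for Csf2, 78.3% for Ifngr1 and 4.09% for Ifngr2, beside a median of 47.2%. For Ifngr2 the remainder that neither explains was 74.9%, beside a median of 27.6%. The 4 genes thus differed in where their variation lay, and these shares are descriptions without a test.

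**Figure D3:**
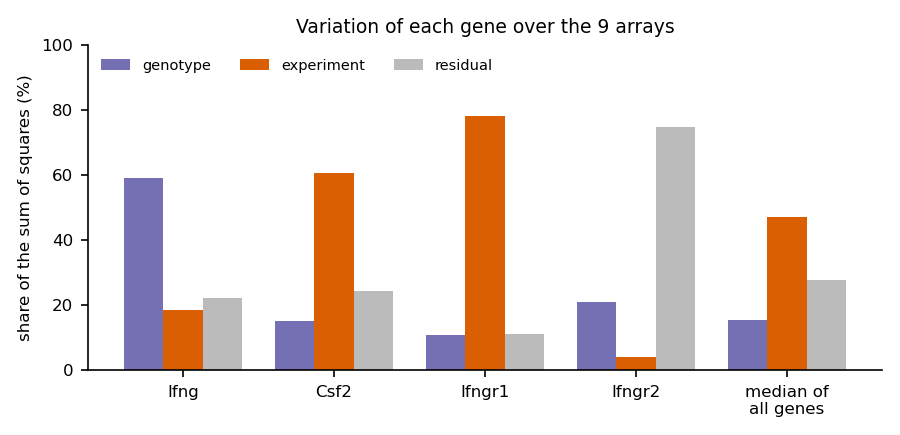
Share of the sum of squares over the 9 arrays (percent, vertical axis from 0) that lies between genotypes, between experiments and in the remainder, for each of the 4 genes and as the median over all genes tested. Genotype takes the largest share for Ifng (59.3%), experiment for Csf2 (60.6%) and Ifngr1 (78.3%), and the remainder for Ifngr2 (74.9%).

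The other genes of the pathway were taken from lists of the receptors, kinases and factors that lead to Ifng, of the receptor's signalling parts, of inducible genes and of related cytokines. In limma, 0 members of these 8 lists passed the threshold in the 3 comparisons, unpaired or paired. The counts below say how many tested members were below WT and how many had an unadjusted p under 0.05. Among all genes, the unpaired limma fit gave such a p, in either direction, to 2.08% for Tyk2-/- and 4.21% for Tyk2K923E, each against WT. The median log2 difference of all genes tested was 0.00 in each comparison, and 48.1% of all genes were below WT in Tyk2-/- and 49.1% in Tyk2K923E, while 48.9% were below Tyk2K923E in Tyk2-/-.

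Upstream of Ifng, 27 of 31 receptors and kinases were tested. In Tyk2-/- 18 were below WT, with a median of -0.04 and 1 at an unadjusted p under 0.05, and in Tyk2K923E 20 were below WT, with a median of -0.10 and 5 at such a p. Without experiment 3 the count in Tyk2-/- was 14 of 27, with a median of -0.01. Stat4, the factor that IL-12 activates, differed by -0.22 in Tyk2-/- and by -0.44 in Tyk2K923E (adjusted p = 1 and 0.643). Il18rap, a chain of the IL-18 receptor, differed by -0.22 and -0.29, and Smad3, which relays TGF-beta signals, by -0.18 and -0.45. The IL-12 receptor chains Il12rb1 (0.00 and -0.09) and Il12rb2 (-0.04 and -0.18) and the IL-2 receptor chain Il2rb (0.02 and 0.02) were closer to WT.

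Of 29 transcription factors that act at Ifng or Csf2, 27 were tested, with 20 below WT in Tyk2-/- (median -0.03, 0 at an unadjusted p under 0.05) and 16 in Tyk2K923E (median -0.05, 3 at such a p). Tbx21, which encodes T-bet, the factor that drives Ifng, differed by -0.13 and -0.17. Irf1, itself induced by interferon-gamma, differed by -0.10 and -0.29, and Runx1 by -0.19 and -0.23. Eomes, the T-bet relative of NK cells, differed by 0.05 and 0.03. None of these passed the threshold. In Tyk2-/- 15 of 27 were below WT without experiment 3, with a median of -0.02, and 22 without experiment 1, with a median of -0.07.

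All 12 regulators of cytokine mRNA decay were tested, some of which act on AU-rich or structured 3' ends such as those of cytokine messages. The list was not split by the direction in which its members act. In Tyk2-/- 3 were below WT (median 0.05) and in Tyk2K923E 5 were (median 0.00), with 0 at an unadjusted p under 0.05 in both. Their median difference between Tyk2-/- and WT was 0.00 without experiment 1. Zfp36l1, which promotes decay, differed by 0.03 in Tyk2-/- and -0.15 in Tyk2K923E, Ago2 by 0.12 and 0.04, Rc3h2 by -0.10 and -0.06 and Zc3h12d by 0.11 and 0.00.

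Downstream, 12 of 13 genes of interferon-gamma receptor signalling were tested, with 8 below WT in Tyk2-/- (median -0.01, and 6 after median centring of the arrays) and 9 in Tyk2K923E (median -0.06, and 6 without experiment 1). At an unadjusted p under 0.05 there were 0 and 1. That gene was Socs1, the inducible inhibitor of the receptor's kinases, which differed by 0.00 in Tyk2-/- and -0.27 in Tyk2K923E (adjusted p = 0.833). The phosphatase gene Ptpn6 differed by 0.00 and -0.23, Socs3 by -0.05 and -0.18 and Pias1 by -0.08 and -0.11. The kinase genes Jak1 (-0.01 and 0.00) and Jak2 (-0.15 and -0.14) did not pass.

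Of 42 genes that interferon-gamma induces, 35 were read by a probe set of their own, of which 30 entered the test. In Tyk2-/- 26 were below WT, with a median of -0.07 and 4 at an unadjusted p under 0.05. In Tyk2K923E 26 were below WT as well, with a median of -0.27 and 12 at such a p. Between the mutants, 22 were higher in Tyk2-/-, with a median of 0.10. The median in Tyk2K923E was -0.16 without experiment 1 and -0.17 over all 35 genes without the filter. In Tyk2-/- 20 of 30 were below WT without experiment 1, and without the filter 26 of 35 were, with a median of -0.04. Igtp, an immunity-related GTPase, differed by -0.02 in Tyk2-/- and -0.45 in Tyk2K923E (adjusted p = 0.643 for the latter). Irgm1, of the same family, differed by -0.28 and -0.34, and the guanylate-binding protein gene Gbp4 by -0.22 and -0.28. Several of these genes also respond to type I interferon, so the list is not particular to interferon-gamma. Cxcl9, a chemokine gene that interferon-gamma induces, was below the array median on all 9 arrays at 4.56 to 4.83, and Cxcl10 on 8 of them at 5.06 to 5.47.

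Of the GM-CSF receptor and related genes, 3 of 11 were tested. Csf2ra, the specific receptor chain, differed by -0.06 in Tyk2-/- and 0.07 in Tyk2K923E, Csf3r by -0.09 and -0.10 and Il3ra by 0.05 and 0.09. The shared signalling chain Csf2rb lay at 4.42 to 5.28 and its relative Csf2rb2 at 4.13 to 4.71, below the median on all 9 arrays. Il3, which lies beside Csf2 in the cytokine cluster of chromosome 11, lay at 3.91 to 4.26, also below it on all 9.

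Of the other cytokines and chemokines of NK cells, 15 of 24 were tested, with 9 below WT in Tyk2-/- (median -0.08, 3 at an unadjusted p under 0.05) and 12 in Tyk2K923E (median -0.27, 6 at such a p). The median in Tyk2K923E was -0.15 without experiment 2 and, over 22 genes without the filter, -0.14 with 16 below WT. In Tyk2-/- it was -0.03 without experiment 3 and -0.13 without experiment 1. Ccl5, a chemokine gene of NK and T cells, had the lowest values against WT in this list, at -1.05 and -1.01 (adjusted p = 1 and 0.58 in limma, and 0.0649 and 0.0583 with the experiments paired). Lta, which encodes lymphotoxin alpha, differed by 0.34 in Tyk2-/- and -0.32 in Tyk2K923E and by 0.66 between the mutants (adjusted p = 1). Tnf differed by 0.03 and -0.29 and Tnfsf10, which encodes TRAIL, by -0.19 and -0.57. Il22 (1.45 to 1.95) and Il10 (3.99 to 4.37) were below the array median on all 9 arrays.

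Ifngr1 and Ifngr2 belong to the class II cytokine receptors, of which 5 of 10 further chains were tested. All 5 were below WT in Tyk2-/- (median -0.12) and in Tyk2K923E (median -0.14, and 3 of 5 without experiment 1), with 1 at an unadjusted p under 0.05 in each. That chain was Il10rb, which IL-10 and type III interferon receptors share, at -0.24 and -0.36. Ifnar1 differed by -0.11 and -0.14, Ifnar2 by -0.12 and -0.28 and Il10ra by -0.18 and -0.03. Without the filter, 7 of 10 were below WT in each comparison, and the median in Tyk2K923E was -0.04. Without experiment 3 the median in Tyk2-/- was -0.19.

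**Figure D4:**
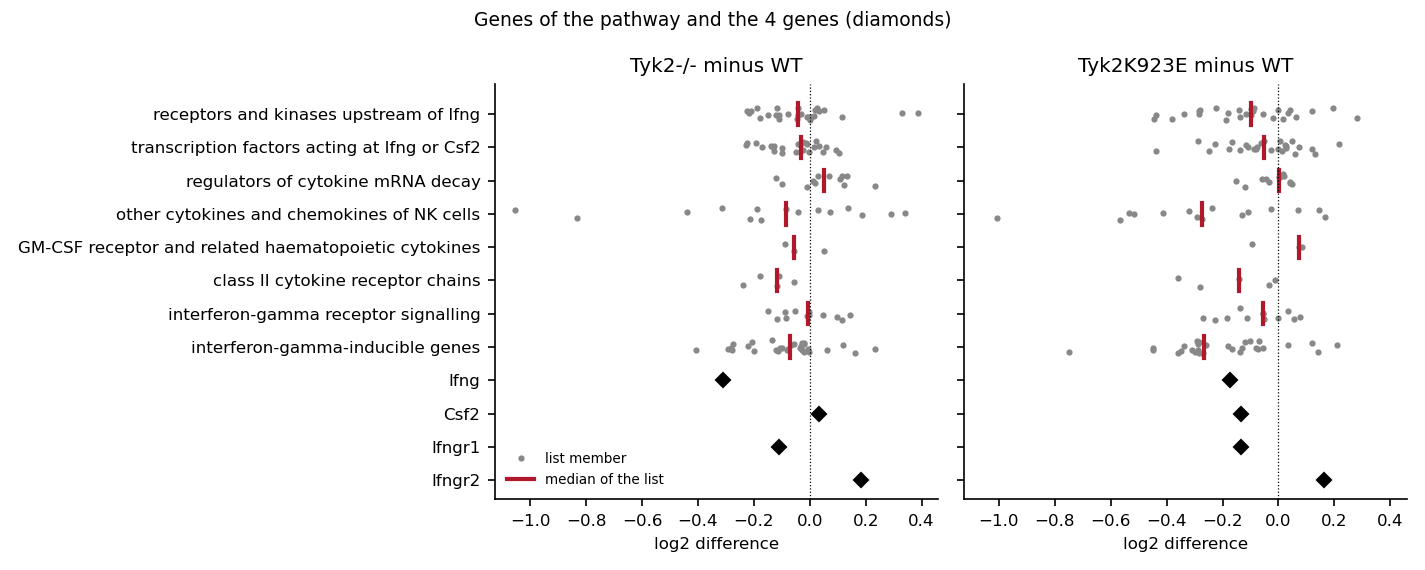
Log2 differences against WT (horizontal axes) of the tested members of the 8 pathway lists as grey points, with the median of each list as a red bar, and of the 4 genes as diamonds. In Tyk2-/- Ifng, at -0.31, lies below the medians of all 8 lists, which run from -0.12 to 0.05. Single members of these lists, Ccl5 among them, lie below Ifng. In Tyk2K923E the median of the inducible genes is -0.27 (-0.17 without the filter) and that of the other cytokines -0.27 (-0.14 without it).

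Marker lists of NK cells and of other cells the DX5 sort could hold were read beside these values. The summed log2 value of 16 NK markers was 175.5 to 177.1 on WT arrays, 173.6 to 174.6 on Tyk2K923E arrays and 172.3 to 175.9 on Tyk2-/- arrays. That of 7 markers of group 1 innate lymphoid cells was 56.1 to 56.3, 52.5 to 54.8 and 53.9 to 54.8, lower on all 6 mutant arrays than on the WT arrays. This group includes NK cells, and the list holds Tnfsf10, also named above among cytokines of NK cells, so it marks no separate cell type. That of 13 T cell markers was 101.5 to 106.3, 97.6 to 101.4 and 101.2 to 104.9, and that of 10 basophil and mast cell markers was 56.7 to 59.2, 58.7 to 61.9 and 57.6 to 59.4. The NK and T cell sums were also lower on the Tyk2K923E arrays than on the WT arrays, but overlapped WT in Tyk2-/-. No sum was tested. In limma 0 members of the 7 marker lists passed unpaired. With the experiments paired Itga1, which encodes the integrin chain CD49a, fell by 0.60 in Tyk2-/- (adjusted p = 0.057 unpaired and 0.0345 paired), and Itga2, which encodes the chain that DX5 binds, fell by 0.71 in Tyk2K923E (0.155 and 0.0375). Neither passed without experiment 1. The T cell markers Cd8a (-0.32 and -0.92) and Bcl11b (-0.09 and -0.42) and the mast cell protease Cpa3 (-0.02 and 0.91) passed in neither comparison with WT. The part of these cells in the values of Ifng, Csf2, Ifngr1 and Ifngr2 was not tested.

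Pearson correlations over the 9 arrays, after the mean of each experiment was subtracted, described which genes moved most like each of the 4. They share arrays and have no test, and among 12577 other genes 27 to 50 exceeded 0.9 for each. Ifng was most like Wac (0.959), Msc (0.959) and Foxe3 (0.949), and Csf2 was most like Bloc1s2 (0.967), Gm14137 (0.955) and Gfra3 (0.952). Ifngr1 was most like Xrcc3 (0.982), Atxn7l2 (0.980) and Runx1 (0.967), and Ifngr2 was most like Pfkl (0.968), Kifc5b (0.962) and Ddx19b (0.957). Without the subtraction, Xrcc3, Atxn7l2 and Runx1 correlated with Ifngr1 at -0.704, -0.264 and -0.013. The genes named for Ifng, Csf2 and Ifngr2 then correlated with them at 0.10 to 0.752. Among the 4 genes themselves, Ifng and Ifngr1 correlated at 0.648, and the other pairs between 0.006 and 0.262. Without the subtraction, Ifng and Ifngr1 correlated at 0.061, Csf2 and Ifngr1 at 0.686, and the other pairs between -0.232 and 0.26.

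The tested genes that flank the 4 on their chromosomes, 3 on each side, did not pass in any comparison. Around Ifng, Mdm1 (0.05 in Tyk2-/- and 0.07 in Tyk2K923E) and Dyrk2 (-0.16 and -0.14) were nearest, with Rap1b, Nup107, Cand1 and Helb beyond them. Around Csf2, P4ha2 (-0.04 and 0.07) and Fnip1 (-0.16 and 0.11) were nearest, with Slc22a21, Slc22a5, Rapgef6 and Cdc42se2 beyond. Tnfaip3, the inhibitor of NF-kappaB, and Slc35d3 flank Ifngr1, with Perp, Arfgef3, Pex7 and Map3k5 beyond, of which Arfgef3 differed most from WT, by 0.29 and 0.27. Ifngr2 lies in a cluster of receptor genes: Il10rb, A930006K02Rik and Ifnar1 lie on one side and Tmem50b, Gart and Son on the other. Il10rb, Ifnar1 and A930006K02Rik (-0.30 in Tyk2K923E) were below WT, while Ifngr2 was at 0.19 and 0.16.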

How the data were processed

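RNA of 9 IL-2 cultures (3 genotypes, 3 independent experiments) was measured on Affymetrix arrays with WT PLUS labelling, per the labels' protocols. The deposited values are log2 values that the authors made with RMA in Partek 6.6, per the submitters' processing notes. The RMA settings and genome build are not given in the sources used here. Median centring, which subtracts each array's own median, and quantile normalisation were tried as other scalings.

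Of 41345 probe sets, 23521 carry 1 gene symbol in the platform annotation, 1814 carry several and 16010 are not listed. Those with 1 symbol that reached the array median on at least 3 of 9 arrays were kept (13245), and the brightest represented a gene, which gave 12579 genes. The genes were compared with limma 3.58.1 (R 4.3.3) in 1 fit of group means over all 9 arrays, and p-values were adjusted by Benjamini-Hochberg per comparison, at a threshold of 0.05. The procedure was tested on simulated data.

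The labels give independent experiments with shared numbers, so arrays are paired by experiment. Residuals of arrays of the same experiment correlated at 0.383 to 0.787 in all 9 pairs, and those of the other 18 pairs at -0.71 to 0.559. The negative values were all between experiment 1 and another experiment. Pairs across experiments 2 and 3 correlated at 0.253 to 0.559, and pairs within experiment 2 at 0.383 to 0.551. These correlations thus set experiment 1 apart but do not separate experiment 2 from 3. The unpaired fit was the main one and the fit with the experiment as a block the alternative. Without the block, spread among experiments stays in the error, which can widen intervals and raise p-values. In Tyk2-/- minus WT, the block took the SE from 0.152 to 0.074 for Ifngr1 and from 0.153 to 0.095 for Csf2. It went from 0.103 to 0.085 for Ifng and stayed at 0.145 for Ifngr2. There, 262 genes had an unadjusted limma p under 0.05 unpaired and 1142 paired, where 629 would be expected without any differences. P-values measure the spread between pooled cultures, and for 3 against 3 values no exact test can go below a p of 0.1.

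The 4 genes and the 15 gene lists (237 distinct genes, 163 tested) were chosen with earlier results of these data known. Named list members are those past the threshold in either fit and up to 4 with the smallest p per list, and Il12rb1, Il12rb2, Il2rb, Eomes, Jak1, Jak2 and genes below the array median were added for their role after their values were seen. The 3 likest genes and the 3 nearest tested genes on each side, in the order of GRCm38.p6, were named for each of the 4. Promoter sequences are from RefSeq (GRCm38.p6), where all 4 symbols matched. Figures were drawn with matplotlib 3.10.9.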

Additional observations from a re-analysis of the deposited data

How the results depend on the processing

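Over the alternatives run, Ifng kept its direction in both comparisons with WT and no gene of the 4 passed the threshold between genotypes. The fit was rerun with a fixed or random experiment block, with 2 genotypes at a time, without the filter or with one at the 70th percentile, with other scalings, an intensity trend, array weights or the mean over probe sets, and without each array or experiment, blocked or not. Of 466 alternative values, 436 kept their direction and side of the threshold. This count does not measure robustness, because many alternatives could not alter a difference. With all arrays kept, a block, an intensity trend, the filter or a fit of 2 genotypes leaves the differences between genotypes unchanged. Leaving out arrays or experiments gave -0.40 to -0.21 for Ifng in Tyk2-/- minus WT and -0.25 to -0.10 in Tyk2K923E minus WT, and the lowest adjusted p of Ifng was 0.332.

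Array weights turned the difference between Tyk2-/- and Tyk2K923E to -0.0283 for Ifngr1 and -0.098 for Ifngr2, and moved Ifngr2 to 0.37 in Tyk2K923E minus WT and 0.27 in Tyk2-/- minus WT. The cause was not tested. Leaving out arrays or experiments turned the following signs, unpaired and with the replicate block. Csf2 ran from -0.12 to 0.14 in Tyk2-/- minus WT (-0.0666 to 0.155 with the block) and from -0.28 to 0.0062 in Tyk2K923E minus WT (-0.26 to 0.0062). Ifngr2 ran from -0.0227 to 0.371 in Tyk2K923E minus WT, with and without the block, and from -0.17 to 0.15 in Tyk2-/- minus Tyk2K923E (-0.18 to 0.15). Ifngr1 ran from -0.15 to 0.11 in the latter (-0.08 to 0.07).

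The adjusted p of the F test between experiments was 0.0203 to 0.175 for Csf2 and 0.0235 to 0.0502 for Ifngr1 when arrays were left out, and for Csf2 0.0251 after quantile normalisation, 0.0425 after median centring, 0.136 without the filter and 0.49 with the mean over probe sets. The cause was not tested.

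With the block the adjusted p of Ifng was 0.377, 0.562 and 0.615 in the 3 comparisons and no call on the 4 genes changed. The numbers of genes called were 4, 1 and 3 in Tyk2-/- minus WT, Tyk2K923E minus WT and Tyk2-/- minus Tyk2K923E. With the replicate block they were 11, 11 and 3, and with a random block 8 and 9 in the first 2. Over all alternatives other than leaving out they ran from 2 to 11, 0 to 28 (with array weights) and 2 to 4, and over those that left out arrays or experiments from 0 to 11, 0 to 34 and 0 to 6. Counts of list members without experiment 1 were added after the data were seen and were 0 for every list, with and without the block. With the block and all arrays, 1 group 1 innate lymphoid cell marker passed in Tyk2-/- minus WT and 1 NK cell marker in Tyk2K923E minus WT.

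Ifng and Ifngr2 did not reach the 70th percentile filter and have no value there. The number of arrays, 3 per genotype, limits the precision: the unpaired 95% interval of Ifng in Tyk2-/- minus WT was -0.54 to -0.07.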
